A study of Rattus norvegicus with 4 samples.

Results

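The genes described here encode the large proteoglycans that bind hyaluronan, the protein that locks them to it, and the enzymes and receptors that make, cut and hold hyaluronan. They are Acan, Vcan, Hapln1, Has1, Has2, Has3, Hyal1, Hyal2, Cd44 and Tnfaip6, and they were chosen by symbol. Of these 10 genes, 9 were matched among the 13554 genes of the deposited count table, and Hyal1 was not analysed here. RNA was sequenced from articular cartilage, the layer on the bone ends of joints, and from xiphoid cartilage, the plate at the tail end of the breastbone. Both came from Sprague-Dawley rats of 8 to 10 weeks, with 2 libraries from each tissue. The labels give neither the joint, the sex nor the number of animals behind a library. The p-values therefore rest on the spread between these libraries alone, shared in part across genes by the test, and that spread may be technical.

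Hyaluronan is a long sugar chain without a protein core, spun out through the cell membrane by the hyaluronan synthases. In cartilage many aggrecan molecules sit side by side on such a chain, each fixed by a link protein, and their sulfated side chains draw in the water that lets the tissue bear load. Versican is built on the same plan and is best known from loose and developing tissue, while hyaluronidases, CD44 and TSG-6 cut, bind or rearrange the chain.

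Library totals ranged from 7351006 to 8434820 estimated read counts, and levels below are in CPM, counts scaled to a common library size after TMM correction for library composition. Chondrocyte markers were present in every library, at 10.2% to 12.2% of counts in articular and 2.77% to 3.06% in xiphoid cartilage, with 6 of 12 tested called toward articular cartilage, 2 toward xiphoid cartilage (Cnmd and Comp) and 4 not called. Col2a1 carried most of that sum, and without it the list was at 1.59% to 1.92% against 1.29% to 1.41%. Most lists of bone, blood and marrow cell markers were higher in the articular libraries. Osteoblast and osteocyte markers were at 0.676% to 0.706% there against 0.0357% to 0.0365% (8 of 8 tested higher), and erythroid markers at 0.403% to 0.442% against 0.0305% to 0.033% (8 of 8). The macrophage list was near level, at 0.0166% to 0.0168% against 0.0156% to 0.016%, with 2 of 9 tested called toward each tissue. Fibroblast and perichondrium markers were at 2.61% to 2.75% in xiphoid against 1.03% to 1.09% in articular cartilage, with 5 of 9 tested higher in xiphoid and 1, Dcn, higher in articular cartilage. Without the leading gene, Gsn, that list was at 1.35% against 0.997% to 1.06%. Skeletal muscle markers stood at 0.889% to 0.89% in xiphoid against 0.0235% to 0.0301% in articular cartilage (10 of 11 tested higher in xiphoid). Adipocyte markers were at 0.239% to 0.305% against 0.00759% to 0.00904% (8 of 8). Synovial lining markers were at 0.878% to 1.15% in articular against 0.014% to 0.0175% in xiphoid cartilage. Of 6 tested, 4 were called toward articular and 1 toward xiphoid cartilage. Prg4 carried nearly all of the articular sum, and without it that list was at 0.00923% to 0.0101% against 0.00799% to 0.00879%. Which cells the Prg4 counts came from was not tested. In such bulk samples, fewer cells of a type and less RNA per cell cannot be told apart, and the part of these other cells in the results below was not tested.

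Of the 9 matched genes, 7 passed the filter on low counts, and of these 3 had more transcript in articular cartilage (Hapln1, Has2 and Acan), 3 had more in xiphoid cartilage (Tnfaip6, Vcan and Hyal2) and 1, Cd44, did not pass the test. Of all 11202 genes tested, 49.5% were called by edgeR's quasi-likelihood test with a threshold of 0.05 on the adjusted p, 25.0% as higher in articular and 24.5% as higher in xiphoid cartilage. The median log2 fold change, articular over xiphoid, was 0.27 for the 7 genes and -0.02 for all genes tested. Without regard to sign, the median was 1.25 for the 7 and 0.57 for all. Tnfaip6, with the largest difference of the 7, was tested because of its xiphoid level, so these medians are a description only. Has1 and Has3 had too few counts to be tested. The plot of levels by library shows each of the 9 genes.

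**Figure D1:**
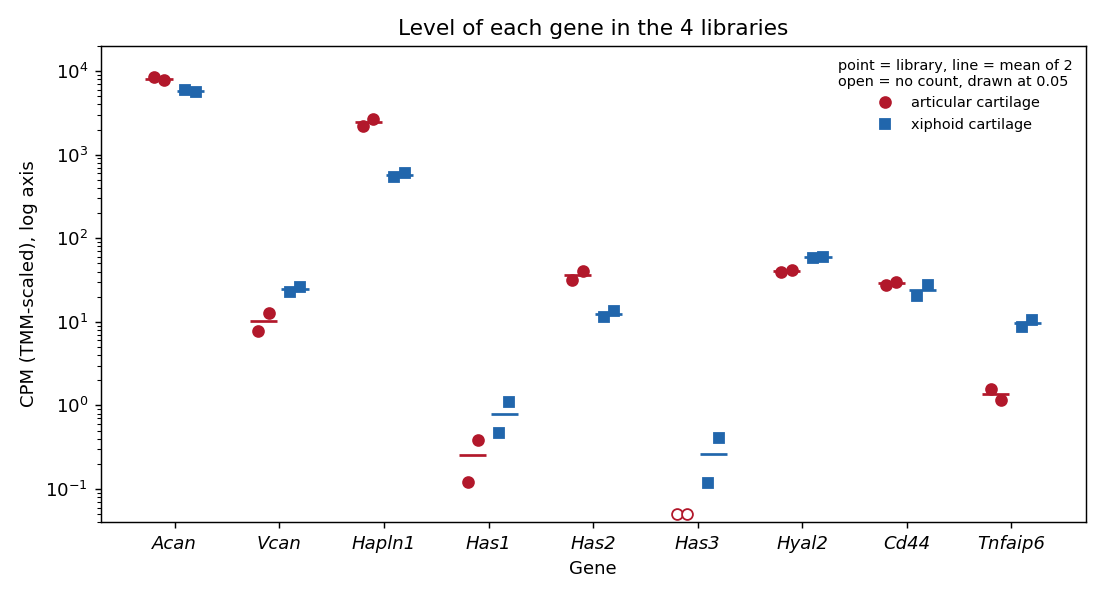
CPM on a log axis for each of the 9 matched genes, with a point for each of the 4 libraries (red circles articular, blue squares xiphoid) and a line at each tissue's mean. Hapln1 and Has2 lie higher in both articular libraries, Vcan and Tnfaip6 in both xiphoid libraries, and Has3 has no count in articular cartilage; levels are not per length, so heights of different genes are not to be compared.

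The hyalectans, the family of aggrecan and versican, moved in opposite directions. Acan (Entrez gene 58968), which encodes aggrecan, was at 8429 and 7806 CPM in articular cartilage and at 5935 and 5650 CPM in xiphoid cartilage, with means of 8118 ± 441 and 5792 ± 201 CPM (SD, n = 2 each). Both articular libraries were above both xiphoid libraries, and the libraries of a tissue lay within 1.08-fold of each other. The change was 1.40-fold (log2 fold change 0.49, SE 0.15, adjusted p = 0.019). Its size held when any 1 library was left out (0.43 to 0.54), while its adjusted p passed 0.05 without articular replicate 1 (0.0692), xiphoid replicate 1 (0.127) or xiphoid replicate 2 (0.193).

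Vcan (Entrez gene 114122), which encodes versican, stood at 7.78 and 12.8 CPM in articular and at 22.8 and 26.2 CPM in xiphoid cartilage (10.3 ± 3.58 and 24.5 ± 2.37, SD, n = 2). The groups did not overlap, although the articular libraries were 1.65-fold apart. Versican transcript was 2.38-fold more abundant in xiphoid cartilage (adjusted p = 0.00139), at a log2 fold change of -1.25 (SE 0.25). Without articular replicate 1 the log2 fold change was -0.93, and without articular replicate 2 it was -1.65. The counts behind these levels were 65 and 100 in articular and 194 and 191 in xiphoid cartilage. The table joins 4 annotated and 1 assembled transcript of Vcan in a single row, so its splice forms, which differ in the stretch that carries the sugar side chains, were not separated.

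Hapln1 (Entrez gene 29331), the link protein that clamps aggrecan to hyaluronan, showed the largest rise toward articular cartilage among the tested genes listed at the start. Its level was 2217 and 2663 CPM in the articular libraries against 536 and 602 CPM in the xiphoid libraries, with every articular value above every xiphoid one (2440 ± 316 and 569 ± 46.1, SD, n = 2). This was a 4.29-fold difference (log2 fold change 2.10, SE 0.17, 95% interval 1.74 to 2.46, adjusted p = 7.23e-07). The interval of Hapln1 lay wholly above that of Acan, 0.15 to 0.82.

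Acan and Hapln1 can also be set against each other within each library, where the scaling between libraries cancels. For every 100 Hapln1 counts, the articular libraries held 380 and 293 Acan counts, and the xiphoid libraries 1107 and 939. The ratio was therefore 3.05-fold higher in xiphoid cartilage. Against the same 100 Hapln1 counts stood 0.351 and 0.482 Vcan counts in articular and 4.25 and 4.35 in xiphoid cartilage, a 10.5-fold difference. Against 100 Acan counts, Vcan counts came to 0.0922 and 0.165 in articular and 0.384 and 0.463 in xiphoid cartilage, a 3.42-fold difference. In each of these ratios the libraries of the tissues were apart. With 2 libraries against 2, an exact permutation test cannot go below a 2-sided p of 0.333, so the ratios are given as values only.

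**Figure D2:**
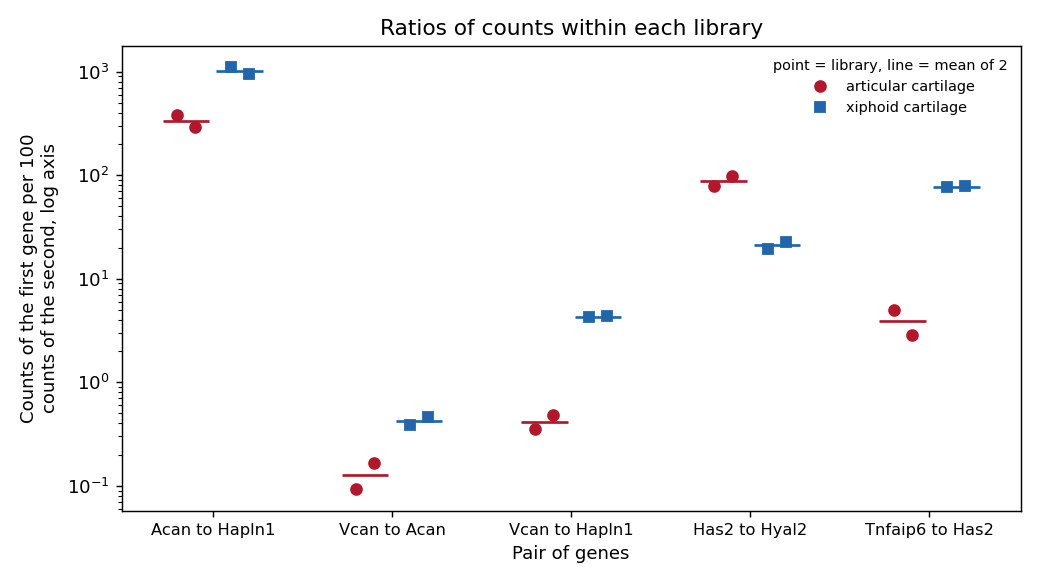
Counts of the first gene per 100 counts of the second within each library, on a log axis, with a point per library and a line at each tissue's mean. Acan to Hapln1, Vcan to Acan, Vcan to Hapln1 and Tnfaip6 to Has2 are higher in both xiphoid libraries. Has2 to Hyal2 is higher in both articular libraries. The unequal lengths of the genes set the height of a pair. They leave the gap between tissues unchanged only where a gene's transcripts are the same in both, which was not tested.

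Hapln1 and Vcan are direct neighbours. In the RefSeq gene order of assembly GRCr8, 0 protein-coding genes lie between them, and they are transcribed toward each other from opposite strands, so that a pair of adjacent genes was called in opposite directions. The same pairing of a hyalectan with a link protein gene holds for Acan and Hapln3, Bcan and Hapln2, and Ncan and Hapln4, each with 0 protein-coding genes between. Acan was higher in articular cartilage, whereas its neighbour Hapln3, a link protein found more widely, stood at 13.5 and 12.8 CPM in articular and 12.3 and 14.7 CPM in xiphoid cartilage. The Hapln3 libraries overlapped and the gene did not pass (log2 fold change -0.03, 95% interval -0.52 to 0.46, adjusted p = 0.923).

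The 250 bases before the RefSeq start sites are shown for Acan, Hapln1 and Vcan because these neighbours and partners moved by different amounts or in opposite directions. They come from the RefSeq promoter table of GRCr8, in which 8 of the 10 genes were matched. Each runs 5′ to 3′ along its gene and ends at the base before the start. The windows are chr1:142390701-142390950, plus strand, for Acan, chr2:22366717-22366966, plus strand, for Hapln1, and chr2:22595956-22596205, minus strand, for the farther upstream of 2 listed Vcan starts. Capitals mark matches, on either strand, to 6 motifs that were searched. These were TATAAA for the element bound by TBP, CCAAT for the element bound by NF-Y, GGGCGG for the GC box, TGANTCA for AP-1, TGACGTCA for the cyclic AMP response element and AACAAT for the core bound by SOX proteins.
Acan: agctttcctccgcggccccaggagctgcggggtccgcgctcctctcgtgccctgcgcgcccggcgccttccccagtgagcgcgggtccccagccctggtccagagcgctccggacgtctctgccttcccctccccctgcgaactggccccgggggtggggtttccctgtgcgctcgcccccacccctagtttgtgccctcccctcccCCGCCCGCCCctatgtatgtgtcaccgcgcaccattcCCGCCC
Hapln1: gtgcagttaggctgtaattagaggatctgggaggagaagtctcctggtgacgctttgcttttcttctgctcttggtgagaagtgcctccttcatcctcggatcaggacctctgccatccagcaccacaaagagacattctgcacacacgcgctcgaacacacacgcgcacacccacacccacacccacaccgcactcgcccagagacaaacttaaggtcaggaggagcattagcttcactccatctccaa
Vcan: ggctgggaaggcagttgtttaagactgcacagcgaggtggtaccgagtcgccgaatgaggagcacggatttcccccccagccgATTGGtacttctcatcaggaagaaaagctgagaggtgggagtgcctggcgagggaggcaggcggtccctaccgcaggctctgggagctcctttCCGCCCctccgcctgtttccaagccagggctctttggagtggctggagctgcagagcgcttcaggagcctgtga

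The Acan window held 3 GC box matches, of which 2 overlap, and was 73.6% G and C against a median of 51.2% over all such windows. The Vcan window held 1 CCAAT match and 1 GC box match and was 61.6% G and C. In the Hapln1 window, at 54% G and C, none of the 6 letter strings was found. Among 27457 genes with a window of this length, 33.5% held a GC box match, 36.1% a CCAAT match, 14.1% a match to TATAAA and 11.2% a SOX match. These matches describe letters and were not tied to the levels above.

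Among the other hyalectans and link proteins, the members tested were low in count, and 2 of 3 were higher in articular cartilage. Of all genes tested, 25% were called in that direction, and 3 genes are too few to show a leaning of the group. Bcan, which encodes brevican and is best known from brain, was at 8.61 and 11.4 CPM in articular and 0.823 and 1.23 CPM in xiphoid cartilage, a 9.72-fold difference (adjusted p = 2.92e-05). Hapln4, a link protein first described in brain, was at 9.81 and 8.48 CPM against 3.29 and 1.78 CPM, a 3.54-fold difference (adjusted p = 0.0011). Both were above their xiphoid values in each articular library. Bcan was below the filter's cutoff of 1.24 CPM in both xiphoid libraries and was tested because of its articular level. Hapln2 had 1 or 2 counts per library and was not tested.

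Of the 3 hyaluronan synthases, Has2 had enough counts to be tested and Has1 and Has3 did not. Has2 (Entrez gene 25694), known as the main synthase of cartilage, was at 31.2 and 40.5 CPM in articular and at 11.4 and 13.4 CPM in xiphoid cartilage (35.8 ± 6.53 and 12.4 ± 1.43, SD, n = 2). The articular libraries were the higher ones, 2.89-fold on average (log2 fold change 1.53, SE 0.21, adjusted p = 8.62e-05), and the call held without any single library (log2 fold change 1.33 to 1.71). A noncoding RNA gene overlaps Has2 in the RefSeq annotation. The overlap is of gene spans in GRCr8, and whether exons are shared was not examined. The use of strand in counting was not stated in the labels, so the Has2 count may include reads of that gene.

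Has1 gave 1 and 3 counts in the articular and 4 and 8 in the xiphoid libraries. Scaled for depth, xiphoid cartilage had 3.06 times the Has1 level, with an exact 95% counting interval of 0.929 to 13.0, so a difference was not detectable at this depth. Has3 had 0 counts in both articular libraries, which allows up to 3 counts over both together, or 0.186 CPM, and 1 and 3 counts in xiphoid cartilage. The exact 95% counting interval of the Has3 ratio, xiphoid over articular, starts at 0.674, so a difference was not detectable here either. These intervals and the floor cover counting error only.

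Synthases draw on UDP-glucuronate and UDP-N-acetylglucosamine, and of the 7 genes listed for making these sugars 2 had the higher level in articular and 1 in xiphoid cartilage, while 4 did not pass. The share called, 42.9%, was near the 49.5% of all genes tested. The genes of the first committed step of the hexosamine route parted. Gfpt2 stood at 40.7 and 51.9 CPM in articular and 111 and 135 CPM in xiphoid cartilage, 2.66-fold higher in the latter (adjusted p = 3.76e-05). Gfpt1, which encodes the sister enzyme, was at 58.4 and 54.6 against 55.0 and 38.1 CPM and did not pass (95% interval of the log2 fold change -0.13 to 0.69, adjusted p = 0.246). Further along the route, Gnpnat1, an acetyltransferase, was 1.71-fold higher in articular cartilage (adjusted p = 0.00236). Pgm3, the mutase after it, was 1.39-fold higher (adjusted p = 0.0245), a call lost without xiphoid replicate 1 (adjusted p = 0.213) or 2 (0.0821) and with DESeq2 (0.0612). Ugdh, which makes UDP-glucuronate, was at 109 and 115 CPM against 95.7 and 94.8 CPM and did not pass (log2 fold change 0.23, 95% interval -0.09 to 0.54, adjusted p = 0.212).

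Hyal2 (Entrez gene 64468) encodes a membrane-anchored hyaluronidase that starts the cutting of long chains. Its level was 39.5 and 41.2 CPM in articular and 58.8 and 59.3 CPM in xiphoid cartilage (40.4 ± 1.24 and 59.1 ± 0.37, SD, n = 2). Replicates lay within 1.04-fold of each other and the tissues did not overlap. Xiphoid cartilage had the higher level, by 1.46-fold (log2 fold change -0.55, SE 0.16, adjusted p = 0.0112). Without xiphoid replicate 1 or 2 the adjusted p was 0.0831 and 0.0925, at log2 fold changes of -0.55 and -0.53.

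Has2, which makes hyaluronan, and Hyal2, which cuts it, were thus called in opposite directions. Per 100 Hyal2 counts, Has2 reached 79.1 and 98.1 counts in articular but 19.4 and 22.6 in xiphoid cartilage, a 4.20-fold difference. Other degradation genes are given singly. Cemip2, another cell-surface hyaluronidase, was 1.69-fold more abundant in xiphoid cartilage (34.8 and 33.0 against 61.0 and 53.4 CPM, adjusted p = 0.00221). Hexa, whose product trims sugar ends in lysosomes, was 1.66-fold more abundant in xiphoid cartilage (adjusted p = 9.69e-04). Hyal3 was at 27.9 and 26.1 against 28.3 and 27.1 CPM (adjusted p = 0.873). That value is uncertain because the gene span of Hyal3 overlaps those of Hyal1 and Naa80 in the annotation.

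Tnfaip6 (Entrez gene 84397) encodes TSG-6, a secreted protein that binds hyaluronan and moves heavy chains onto it. It had the largest difference of the 7 tested genes. The articular libraries held 1.56 and 1.16 CPM and the xiphoid libraries 8.70 and 10.5 CPM, from 13 and 9 counts against 74 and 77 (1.36 ± 0.282 and 9.63 ± 1.31 CPM, SD, n = 2). All xiphoid values were above all articular ones, and the xiphoid level was 6.99 times the articular one (log2 fold change -2.81, SE 0.37, adjusted p = 5.59e-05). With so few articular counts the gene was tested because of its xiphoid level. Per 100 Has2 counts there were 4.98 and 2.86 Tnfaip6 counts in articular and 76.3 and 78.6 in xiphoid cartilage.

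The 250 bases before the Tnfaip6 start, chr3:56911148-56911397, plus strand, of GRCr8, are shown because this gene differed most and because TSG-6 is known as a gene induced by inflammatory signals.
Tnfaip6: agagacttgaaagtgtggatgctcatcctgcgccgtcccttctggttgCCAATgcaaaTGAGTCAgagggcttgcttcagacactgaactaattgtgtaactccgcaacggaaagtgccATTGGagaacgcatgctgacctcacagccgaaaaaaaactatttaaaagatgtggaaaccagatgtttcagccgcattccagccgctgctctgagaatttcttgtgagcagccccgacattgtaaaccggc

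Capitals again mark matches to the 6 motifs. They are 2 CCAAT matches, 1 on each strand, and 1 AP-1 match, TGAGTCA, which lies 192 to 186 bases before the start and overlaps neither. Of all genes, 6.99% held an AP-1 match and 36.1% a CCAAT match in such windows. These matches describe letters and were not tied to the Tnfaip6 level. Whether AP-1 or inflammatory signals bear on that level was not tested.

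Cd44 (Entrez gene 25406), the main cell-surface receptor for hyaluronan, was at 27.8 and 29.9 CPM in articular and 20.6 and 27.4 CPM in xiphoid cartilage (28.8 ± 1.54 and 24.0 ± 4.82, SD, n = 2). The tissues did not overlap, but the gap between the nearest libraries was small beside the 1.33-fold gap between the xiphoid libraries. Cd44 did not pass (log2 fold change 0.27, 95% interval -0.16 to 0.70, adjusted p = 0.284), and the interval allows up to 1.63-fold more in articular cartilage and 0.893 of the xiphoid level at its lower end. Marrow and immune cells also carry CD44. Lymphocyte markers were at 0.00262% to 0.00301% of counts in articular and 0% to 3.56e-05% in xiphoid cartilage, where Cd79b, Ms4a1, Vpreb1, Cd3e and Cd8a had no count. Neutrophil markers were at 0.0183% to 0.0184% against 0.0011% to 0.00127%, with 6 of 7 tested higher in articular cartilage. Macrophage markers were at 0.0166% to 0.0168% against 0.0156% to 0.016%, with 2 of 9 tested called toward each tissue. Their part in the Cd44 level was not tested.

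Of the other receptors and binding proteins, 5 of 10 matched genes were tested, with 1 called toward articular cartilage, 2 toward xiphoid cartilage and 2 not called. The share called was 60%, near the 49.5% of all genes tested. Layn, which encodes the receptor layilin, was at 5.98 and 7.32 against 16.7 and 16.3 CPM, a 2.48-fold gain on the xiphoid side (adjusted p = 8.2e-04). Ptx3, a pentraxin that works with TSG-6 in building hyaluronan matrices, was at 5.98 and 4.88 against 12.6 and 13.4 CPM, which was 2.38-fold more in xiphoid cartilage (adjusted p = 0.00196). Ptx3 and Tnfaip6 were thus called in the same direction. Of the heavy chain genes, whose products TSG-6 moves, Itih1, Itih3 and Itih4 had 7 counts or fewer in every library, as did Ambp, their light chain partner, while Itih2 and Itih5 were not analysed here. Lyve1, a receptor of lymphatic vessels and some macrophages, was at 8.73 and 10.0 against 15.5 and 12.6 CPM and did not pass (adjusted p = 0.0624).

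Hmmr, which encodes a hyaluronan-binding protein that also acts on the mitotic spindle, went the other way. It was at 4.90 and 10.4 CPM in articular and 0.706 and 0.548 CPM in xiphoid cartilage, so articular cartilage had 11.8 times the level (log2 fold change 3.56, SE 0.54, adjusted p = 1.64e-04). Hmmr was below the filter's cutoff in both xiphoid libraries and was tested because of its articular level. The log2 fold change was 2.93 without articular replicate 2, which held the higher value. Markers of cycling cells were at 0.00875% to 0.00912% of counts in articular and 0.00127% to 0.00162% in xiphoid cartilage, with 6 of 6 higher in articular cartilage, and their part in the Hmmr level was not tested.

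**Figure D3:**
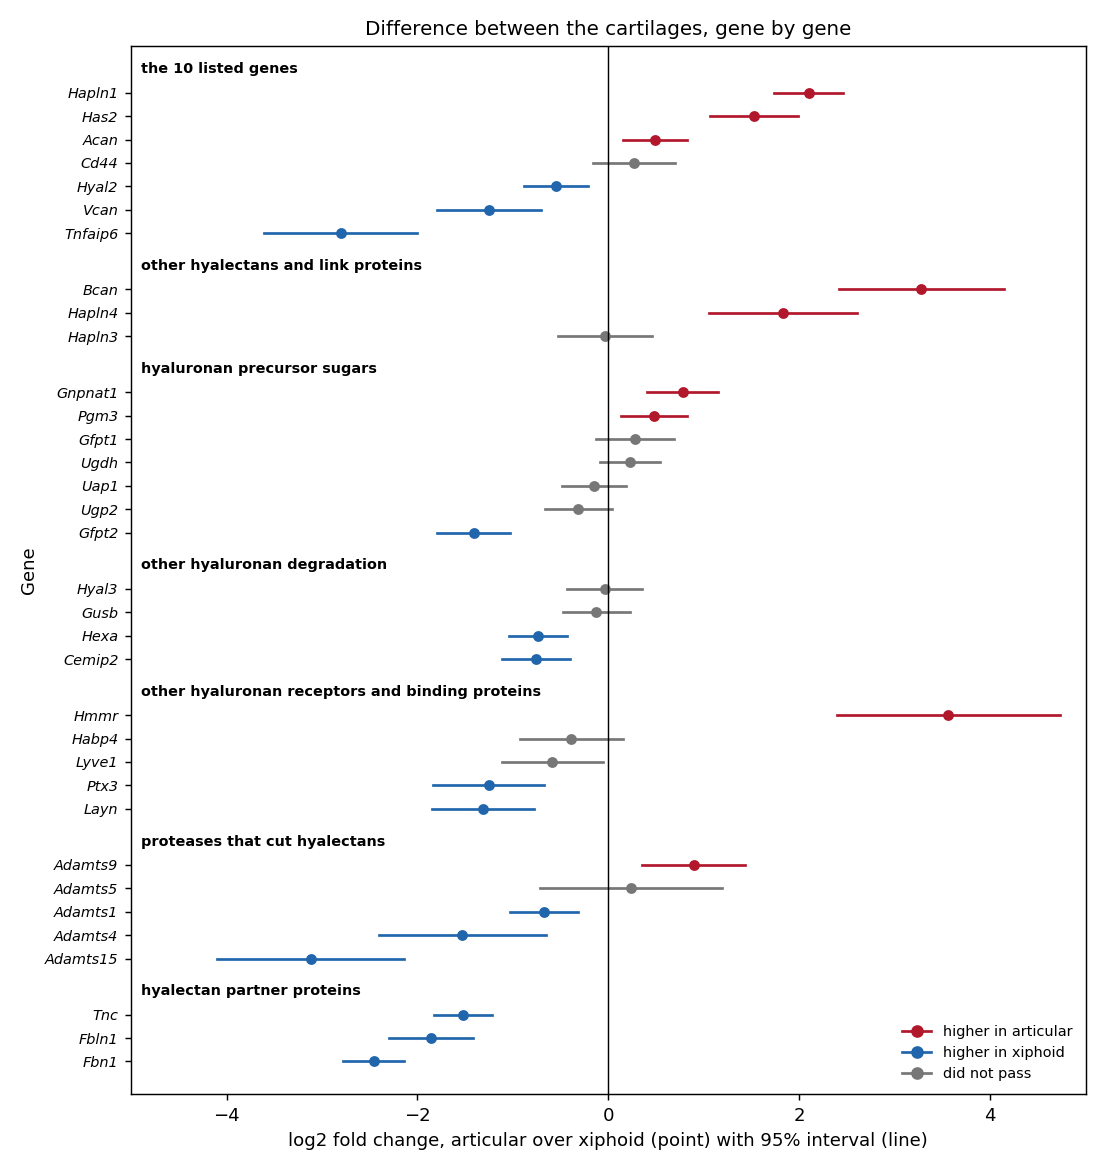
Log2 fold change, articular over xiphoid, of the tested genes that are reported (points) with its 95% interval (lines), in red where higher in articular, blue where higher in xiphoid cartilage and grey where the gene did not pass. Hapln1 (2.10) and Tnfaip6 (-2.81) mark the ends of the first group, and the partner proteins Tnc, Fbln1 and Fbn1 all lie on the xiphoid side.

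The proteases that cut aggrecan and versican parted, with 3 of the 5 tested called toward xiphoid and 1 toward articular cartilage, and 1 that did not pass. Of all genes tested, 24.5% were called toward xiphoid and 25% toward articular cartilage, and 5 genes are too few to show a leaning of the group. Adamts15 was at 0.837 and 0.642 CPM in articular and 6.82 and 6.30 CPM in xiphoid cartilage, 8.68-fold higher in the latter (adjusted p = 1.16e-04). Below the filter's cutoff in both articular libraries, it was tested because of its xiphoid level. Adamts4, an aggrecanase, was at 4.43 and 1.80 against 10.7 and 7.40 CPM, 2.89-fold more in xiphoid cartilage (log2 fold change -1.53, adjusted p = 0.00725). Its log2 fold change was -2.33 without articular replicate 1 and -1.04 without articular replicate 2. Adamts1, which cuts versican among others, was 1.59-fold more abundant in xiphoid cartilage (adjusted p = 0.00487).

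Adamts5, the other main aggrecanase, was at 7.42 and 2.70 CPM in articular and 4.23 and 4.38 CPM in xiphoid cartilage. Its articular libraries lay on either side of both xiphoid libraries (log2 fold change 0.24, SE 0.44, adjusted p = 0.68), and the sign turned without articular replicate 1 (-0.67). Adamts9, a versican-cutting protease, was 1.86-fold higher in articular cartilage (adjusted p = 0.00983), a call lost without xiphoid replicate 2 (adjusted p = 0.101).

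All 3 tested partner proteins that bind the ends of hyalectans were higher in xiphoid cartilage, as were 24.5% of all genes tested. Tnc, which encodes tenascin-C, was at 103 and 102 CPM in articular and 296 and 295 CPM in xiphoid cartilage, 2.87-fold higher (adjusted p = 3e-06). Fbln1, a fibulin, was at 10.5 and 13.4 against 40.6 and 46.3 CPM, 3.64-fold higher (adjusted p = 1.13e-05). Fbn1, which encodes the microfibril protein fibrillin-1, was at 70.3 and 70.9 against 392 and 384 CPM, 5.49-fold higher (adjusted p = 5.91e-08). Vcan was on the same side as these partners, and Acan and Hapln1 were on the other. Fibroblasts also make these proteins. Of the fibroblast and perichondrium markers, Gsn, Col3a1, Pi16, Dpt and Postn were higher in xiphoid cartilage, Dcn was 1.64-fold higher in articular cartilage, and Col1a1, Col1a2 and Pdgfra did not pass. Their part in the result was not tested.

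Over the 47 pathway genes listed beside the 10, 34 were matched and 28 tested, of which 7 were called toward articular and 11 toward xiphoid cartilage, while 10 did not pass. The share called was 64.3%, against 49.5% of all genes tested, and the median log2 fold change was -0.23. Among those called, Bcan and Hmmr were tested because of their articular level and Adamts15 because of its xiphoid level. The lists were also chosen with earlier results known, so the share is a description and not a test of the pathway.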

How the data were processed

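The deposited table held 1 expected count (an estimated read number) per gene and library per the file headers, not normalized judging by the values, of which 3.91% were not whole. Build rn6, RSEM 1.2.12, Bowtie2 2.2.6, StringTie 1.2.1 and HISAT2 2.0.4 are named, without roles, per the submitters' processing notes. Counts were rounded, filtered with filterByExpr, scaled by TMM and tested for tissue with the edgeR 4.0.16 quasi-likelihood test (robust) in R 4.3.3, with Benjamini-Hochberg adjustment over all 11202 genes tested and a 2-sided threshold of 0.05. The standard error is the log2 fold change over the square root of F, and intervals are at 95%. A gene has 2 residual degrees of freedom, and the test adds a median of 10 from the other genes. A p-value or SE thus does not measure the gene's own spread alone.

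Transcript length was not corrected, which cancels within a gene whose transcripts are the same in both tissues. Identifiers, symbols and marker sums come from the table. Gene order and promoters are from RefSeq GRCr8, not the build of the counts, and were matched by symbol. The genes and lists were chosen with earlier results of these data known. Named are all 10 genes, up to 4 called genes of each pathway group, leading markers and the 3 nearest profiles of Acan, Hapln1 and Vcan. Genes that did not pass, the genes with no count, and the annotation terms below were named after their values were seen. The alternatives were RLE and upper-quartile factors, library totals alone, no filter, a minimum mean CPM of 5, limma-voom (limma 3.58.1), DESeq2 1.42.0, a replicate block and leaving out each library. The procedure was tested on simulated data. A gene of the pathway list is counted in its totals but not reported here.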

Additional observations from a re-analysis of the deposited data

How the results depend on the processing

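Across 12 alternatives, the 7 tested members kept their direction in every fit. All 6 calls held under the 8 alternatives that keep every library, where Acan had a log2 fold change of 0.48 to 0.53 and Hyal2 of -0.55 to -0.50. With libraries left out in turn, Acan ranged from 0.43 to 0.54 and lost its call in 3 of the 4 fits, and Hyal2 ranged from -0.58 to -0.52 and lost it in 2. The cause was not tested, though each such fit has fewer samples. Members called ranged from 2 to 3 in each direction. The pathway genes called ranged from 5 to 8 toward articular and from 10 to 14 toward xiphoid cartilage, and all genes called from 4332 to 6828. Signs turned for genes that had not passed, namely Hapln3 and Hyal3 with upper-quartile factors (0.0142 and 0.0066), Hapln3 without libraries in turn (-0.14 to 0.11), Hyal3 likewise (-0.089 to 0.0075) and Adamts5 likewise (-0.67 to 0.78). Same-numbered libraries share only a number in the labels. Their deviations correlated at 0.24 over genes, and the fit with a replicate block called 6828 genes and changed no call of a member. Genes that gained a call with the replicate block were Ugp2 (adjusted p = 0.00328), Gfpt1 (0.0426), Lyve1 (0.023), Habp4 (0.0336) and Inip (0.0317). Depth limits Has1 and Has3, which it left untested.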

Other observations

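Genes annotated to hyaluronic acid binding in the deposited table, a term looked up after the data were seen, numbered 18. Of these 13 were tested, and 5 were called toward articular and 5 toward xiphoid cartilage, while 3 did not pass (edgeR quasi-likelihood test). Of all genes tested, 25.0% were called toward articular and 24.5% toward xiphoid cartilage. The articular side held Acan, Hapln1, Bcan, Hapln4 and Hmmr, and the xiphoid side Vcan, Tnfaip6, Hyal2, Layn and C1qbp. All of the tested genes except C1qbp were described above, so this count repeats those values and adds no separate evidence. Bcan and Hmmr were tested because of their articular level, and Tnfaip6 because of its xiphoid level. C1qbp, a protein mostly of mitochondria that also binds hyaluronan, had a log2 fold change of -0.59 (adjusted p = 0.0103). The median log2 fold change of the 13 tested genes was -0.03. Hyaluronan biosynthetic process, metabolic process and catabolic process were also looked up. Of their 3, 5 and 8 tested genes, 1, 3 and 2 were called toward articular and 0, 1 and 3 toward xiphoid cartilage.

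The profiles closest to those of Acan, Hapln1 and Vcan were sought over the 4 libraries by the Euclidean distance between centred log2 CPM values. Closest to Acan were Insr, the insulin receptor (distance 0.026), Itpr1, a calcium release channel (0.0326), and Inip (0.0401). Closest to Hapln1 were Catsperd (0.0326), Bhlhe40, a transcription factor of the clock (0.0474), and Casr, the calcium-sensing receptor (0.0776). Closest to Vcan were Lrrc4b (0.0864), C6, a complement component (0.0869), and Sik1, a kinase (0.118). Inip (adjusted p = 0.0734) and Lrrc4b (0.0884) did not pass the edgeR quasi-likelihood test. Lrrc4b was low, at 0.359 and 0.771 CPM in articular and 1.41 and 1.78 CPM in xiphoid cartilage. Catsperd was at 0.706 and 0.822 CPM in xiphoid cartilage. The log2 CPM values used a prior count of 2, which shrinks differences of such low genes and so affects their rank. With 4 libraries of 2 tissues, many genes have near-identical profiles.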
